A study of Homo sapiens with 4 samples.

Results

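Lysosomal hydrolases are the enzymes with which the lysosome breaks down protein, lipid and sugar chains. Under this name 9 mRNAs were followed here through the polysomes of a human colorectal carcinoma line, HCT116. PSAP among them encodes a precursor of activators rather than an enzyme, and is counted with the hydrolases throughout. The 9 rows were taken by gene symbol from the 26364 symbols of the deposited count table. TPP1 and PLBD2 were picked because measured values showed them moving toward light polysomes in the labelled knockout. CTSA, CTSB, CTSC, CTSD, CTSZ, PSAP and HEXA were added as enzymes or activators of the same compartment, with earlier results of these data known. For TPP1 and PLBD2 every comparison of the heavy to light ratio between genotypes is therefore a description of the choice and supports nothing.

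Polysomes are mRNAs carrying several ribosomes, and a sucrose gradient sorts them by ribosome number. Cytoplasm of wild type HCT116 cells and of HCT116 cells labelled as a Dicer1 knockout was run on 1 gradient each. From each gradient came a library of heavy polysomes, with 10 ribosomes or more, and one of light polysomes, with 9 or fewer. The 4 groups thus had 1 library each: wild type heavy, wild type light, labelled knockout heavy and labelled knockout light, and counts of a gene are listed in that order throughout. The labels name no treatment or time point, and do not say where DICER1, the enzyme that cuts microRNA precursors, was altered or whether the altered cells are 1 clone. No genotype difference below has a replicate check.

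The library totals ran from 17457116 to 20933675 counts. DICER1 mRNA, at 500, 547, 925 and 889 counts, was higher in the altered cells, not lower. Its labelled knockout to wild type ratio (log2) was 0.95 in heavy and 0.96 in light polysomes. Such a count cannot tell a working enzyme from a broken one, so the name "labelled knockout" is kept. The epithelial markers EPCAM, KRT8, KRT18, KRT19 and CDH1 were present in all 4 libraries, with a summed level between 1724 and 9970 CPM (counts scaled to equal library size). Of 12 markers of macrophages and other blood cells, which are rich in lysosomal enzymes, 4 had no count in any library and the highest count of any was 19, with a summed level of 1.09 to 2.49 CPM. Of 9 fibroblast and endothelial markers, COL1A1 alone entered the fit, with 206 to 911 counts.

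Most of these enzymes are made on ribosomes at the endoplasmic reticulum, receive N-linked sugars and a mannose 6-phosphate tag in the Golgi apparatus, and are carried to the lysosome by mannose 6-phosphate receptors. They work in the acid that the V-ATPase pumps into the lysosome, and most are made as inactive precursors. In many cell types their genes respond to TFEB and TFE3, transcription factors that bind E-box motifs in the promoters of lysosomal genes.

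The promoters are shown first because the 4 members with such an E-box can be set beside the polysome values further on. RefSeq (GRCh38.p14) gave a promoter window of 250 bases before to 50 after the gene start for 6 of the 9 members: TPP1, PLBD2, CTSA, CTSC, CTSD and CTSZ. Both strands were searched for CACGTG and for the wider TCACNTGA, which overlap in TCACGTGA, and the motifs were chosen with the TPP1 and PLBD2 sequences in view. CACGTG was found in 3 of the 6 windows and in 7.43% of all 27305 promoters, and TCACNTGA in 3 of the 6 and in 3.93% of all. Among the 10048 promoters of tested genes the shares were 10.1% and 4.19%. The counts of 3 of 6 include TPP1 and PLBD2, whose matches were fixed by that choice, so no enrichment is read from them. Of CTSA, CTSC, CTSD and CTSZ, CACGTG was found in CTSA and CTSD and TCACNTGA in CTSA alone. The matches lie within 50 bases of the RefSeq gene start, and the capitals below mark them. That start differs from the GENCODE gene positions given further on. For CTSA and CTSD the matches lie well inside the GENCODE gene, which starts at 45890144 (CTSA, plus strand) and 1764573 (CTSD, minus strand).
TPP1, chr11:6619413-6619442, minus strand: catgtgatccgTCACATGAcagcagatccg
PLBD2, chr12:113358551-113358580, plus strand: gcagagcgcagTCACGTGAcccgggctgcg
CTSA, chr20:45891298-45891327, plus strand: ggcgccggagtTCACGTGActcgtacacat
CTSD, chr11:1763957-1763986, minus strand: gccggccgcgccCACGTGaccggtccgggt
TPP1 had a further TCACNTGA match 21 bases before its RefSeq start, and CTSA a further CACGTG match 42 bases before its RefSeq start. CTSC and CTSZ had neither motif in this window, which says only that these letters are not in these 300 bases.

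The members differ in enzyme class and in gene structure. TPP1, which removes tripeptides from the ends of proteins, spans positions 6612768 to 6619448 of chromosome 11 in GRCh38, minus strand, with 13 exons and a coding sequence of 1692 nucleotides. PLBD2, a phospholipase B-like protein of the lysosome, lies on chromosome 12 from 113358566 to 113391629 on the plus strand, with 12 exons and a coding sequence of 1770 nucleotides. CTSA, a carboxypeptidase that also protects other lysosomal enzymes, lies on chromosome 20 from 45890144 to 45898949 on the plus strand. CTSZ, a cysteine carboxypeptidase, lies on the same chromosome from 58985686 to 59008238 on the minus strand and has the shortest coding sequence of the members, 912 nucleotides. CTSD, the main aspartic protease of the lysosome, lies on chromosome 11 from 1752752 to 1764573, and CTSC, which activates other proteases by removing dipeptides, on the same chromosome from 88265069 to 88359684, both on the minus strand. PSAP, the precursor of the saposins that help enzymes reach membrane lipids, spans positions 71816298 to 71851251 of chromosome 10, minus strand. HEXA, a subunit of beta-hexosaminidase, spans positions 72340924 to 72376420 of chromosome 15, also minus strand. CTSB, an abundant cysteine protease, is on chromosome 8 with 10 exons and a coding sequence of 1020 nucleotides.

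Reads of some members cannot be assigned with full certainty. Exon bases are shared with another gene of the same strand by CTSD (55.4%, a protein-coding gene), TPP1 (19.0%, a noncoding gene) and HEXA (12.9%, a protein-coding gene). On the opposite strand PLTP covers 10.7% of the exon bases of CTSA. The strand setting of the counting is not given in the sources used here.

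PSAP had the highest level of the members in both heavy libraries and CTSZ in both light ones, and PLBD2 was lowest in all 4. Levels between genes are given as TMM-scaled CPM per kilobase of the main GENCODE transcript, averaged over the 4 libraries, with the range over libraries. On this scale PSAP stood at 197 (51.6 to 329), CTSZ at 142 (122 to 175), CTSB at 107 (96.5 to 131), CTSA at 106 (29.6 to 188) and CTSD at 103 (35.4 to 172). TPP1 followed at 31.1 (6.83 to 53.0), CTSC at 28.9 (17.4 to 45.1), HEXA at 10.2 (3.39 to 15.6) and PLBD2 at 4.03 (1.18 to 6.68). Neighbours in this order overlapped in their ranges over the libraries, except CTSC and HEXA, but these ranges span both fractions. Compared library by library, CTSZ stayed above CTSB, CTSD above TPP1, CTSC above HEXA and HEXA above PLBD2 in all 4. The other neighbours changed order between libraries. Together the 9 mRNAs took 0.204%, 0.103%, 0.245% and 0.146% of all counts in the 4 libraries. These shares are relative to each library and cannot tell fewer cells or fewer polysomes from less of an mRNA per cell.

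**Figure D1:**
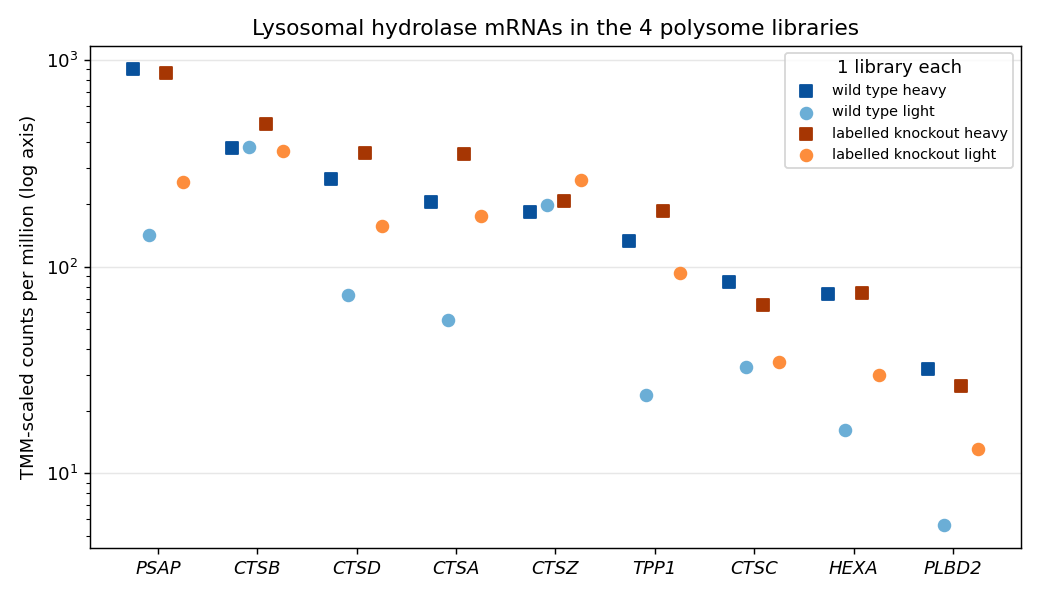
TMM-scaled CPM (log axis) of the 9 lysosomal hydrolase mRNAs in each of the 4 libraries, 1 point per library, ordered by the wild type heavy level. For 7 genes both heavy libraries (squares) lie above both light ones (circles), while the points of CTSB and CTSZ lie close together.

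The first comparison asked whether the scaled level of these mRNAs was higher in heavy or in light polysomes. Levels are scaled within each library, so a ratio compares a gene with the other mRNAs of the 2 fractions. It does not say in which fraction most molecules of a gene sat. Of the 7 added members, CTSA, CTSC, CTSD, PSAP and HEXA were called toward heavy polysomes by edgeR's quasi-likelihood test. CTSB and CTSZ were not called. The background over all 13574 genes of the fit was 30.0% called heavy and 29.3% called light. The median fitted log2 heavy to light ratio was 1.45 over the 7 and -0.07 over all genes tested. The 2 gradients, which differ in genotype, serve as the replicates of this comparison and leave 1 residual degree of freedom, so the p-values rest on a spread shared across genes.

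PSAP, the saposin precursor, had 17106, 3122, 15527 and 4717 counts. Both heavy libraries lay far above both light ones, with a fitted log2 ratio of 2.21 (SE 0.33, edgeR adjusted p = 5.47e-10, 2 gradients), the highest of the members. HEXA, the hexosaminidase subunit, had 1398, 357, 1350 and 551 counts, again with both heavy libraries above both light ones. Its fitted ratio was 1.75 (SE 0.27, edgeR adjusted p = 2.33e-09, 2 gradients).

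CTSD, the aspartic protease, had 5028, 1602, 6389 and 2894 counts, with a fitted ratio of 1.52 (SE 0.30, edgeR adjusted p = 3.10e-06). CTSA, the carboxypeptidase, had 3888, 1210, 6321 and 3223 counts. Its fitted ratio was 1.45 (SE 0.30, edgeR adjusted p = 8.02e-06), and scaled to library size its labelled knockout light level of 175 CPM was still below its wild type heavy level of 206 CPM. CTSC, the dipeptidyl peptidase, had 1596, 717, 1179 and 631 counts, both heavy libraries exceeding both light ones, with a fitted ratio of 1.15 (SE 0.27, edgeR adjusted p = 7.29e-05). Without the gradient as a block, CTSA was no longer called (log2 ratio 1.27, adjusted p = 0.0701), and the other 4 were.

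The cysteine proteases CTSB and CTSZ were not called toward either fraction. CTSB had 7054, 8354, 8821 and 6619 counts, with the highest and the lowest of them in the labelled knockout. Its fitted log2 ratio was 0.21 (SE 0.31, edgeR adjusted p = 0.577), with -0.02 in the wild type gradient (95% counting interval -0.07 to 0.02) and 0.44 in the labelled knockout gradient (0.39 to 0.48). CTSZ had 3453, 4385, 3767 and 4832 counts, with a fitted ratio of -0.23 (SE 0.29, edgeR adjusted p = 0.504). Both light libraries of CTSZ exceeded both heavy ones in counts, although scaled to library size the wild type light level (199 CPM) lay below the labelled knockout heavy level (208 CPM).

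Coding length orders mRNAs on a gradient, and the members can be read against it. Genes with a coding sequence of 1000 to 1500 nucleotides had a median log2 ratio of 0.08 in each gradient, and those of 1500 to 2000 nucleotides medians of 0.44 (wild type) and 0.42 (labelled knockout). CTSB, at 1020 nucleotides, lay close to the median of its class in the wild type, whereas CTSC, CTSD and CTSA, of 1239 to 1443 nucleotides, stood at 1.37, 1.87 and 1.90 in that gradient and at 0.92, 1.16 and 0.99 in the labelled knockout gradient. PSAP and HEXA, of 1575 and 1590 nucleotides, stood at 2.67 and 2.18 in the wild type gradient and at 1.74 and 1.31 in the other. CTSZ, at 912 nucleotides, had -0.13 (wild type) and -0.34 (labelled knockout) against class medians of -0.46 and -0.51. Over the 10834 genes in which each library held 50 counts or more, 98.6% had a lower wild type ratio than PSAP and 94.9% a lower one than HEXA.

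TPP1 and PLBD2 were heavy in the wild type and less so in the labelled knockout, which is how they were picked. TPP1 had 2508, 525, 3352 and 1709 counts, the wild type light library standing lowest by far. Its log2 heavy to light ratio was 2.47 in the wild type (2.34 to 2.61) and 0.99 in the labelled knockout (0.91 to 1.08). PLBD2 had 605, 124, 478 and 242 counts. Its ratio was 2.48 in the wild type (2.21 to 2.76) and 0.998 in the labelled knockout (0.78 to 1.22). In both gradients the heavy library of each gene lay above the light one. For these 2 genes the disagreement between gradients is also the residual of the fit, so their fitted ratios of 1.73 each are given with no test.

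**Figure D2:**
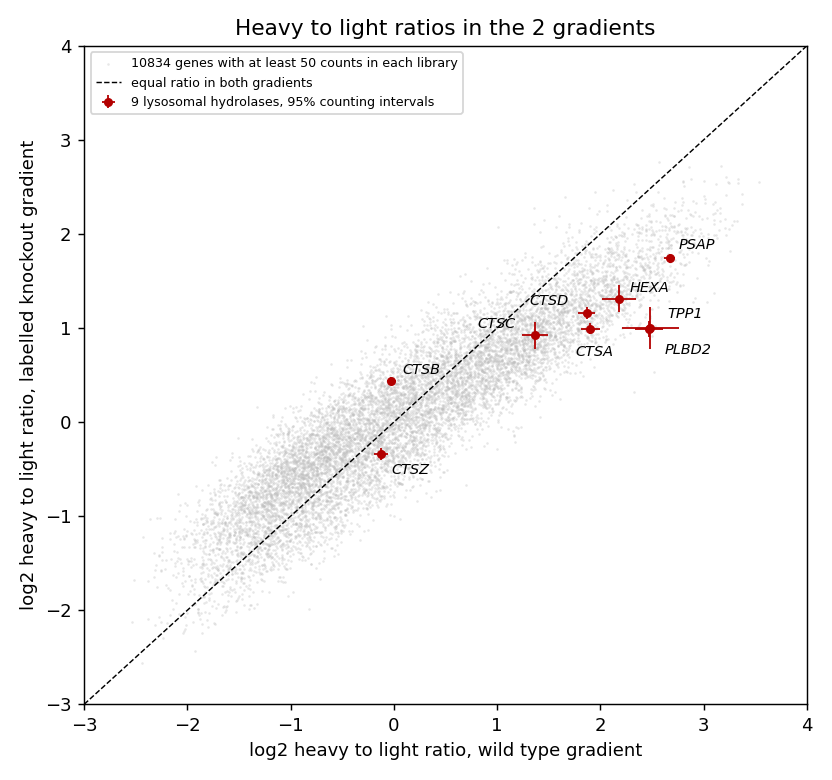
Log2 heavy to light ratio in the wild type gradient (x axis) against the labelled knockout gradient (y axis) for 10834 genes (grey) and the 9 lysosomal hydrolases (red, with 95% counting intervals), with a dashed line of equal ratios. TPP1 and PLBD2 lie at the same place, 2.47 and 2.48 against 0.99 and 0.998, and CTSB alone of the members lies above the line.

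The second comparison was the shift, that is, the labelled knockout gradient's heavy to light ratio (log2) minus the wild type gradient's. The shift was below 0 for 6 of the 7 added members and above 0 for CTSB, where 53.5% of all 10834 genes were below 0. PLBD2 had -1.49 (95% counting interval -1.84 to -1.13) and TPP1 -1.48 (-1.64 to -1.32), the only members at 2-fold or more toward light polysomes with an interval that excludes 0. Among all genes 2.37% met that rule toward light and 0.905% toward heavy, and nothing is read from the members' count because the rule chose them. Just outside the 2-fold limit were PSAP at -0.93 (-1.005 to -0.86) and CTSA at -0.91 (-1.02 to -0.80). HEXA had -0.87 (-1.09 to -0.65), CTSD -0.70 (-0.81 to -0.60), CTSC -0.45 (-0.64 to -0.26), CTSZ -0.21 (-0.30 to -0.12) and CTSB 0.46 (0.40 to 0.53). With DESeq2 size factors in place of TMM, 4 members passed the 2-fold limit, PSAP and CTSA having joined.

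Heavy mRNAs in general had lower ratios in the labelled knockout gradient. When the 10834 genes were divided into 10 equal groups (deciles) by the mean of both gradients' ratios, the median shift was 0.21 in the lightest decile, 0.06 in decile 5, -0.43 in decile 9 and -0.64 in the heaviest. In the heaviest decile 93.3% of the genes had a shift below 0. TPP1, PLBD2, PSAP and HEXA belong to that decile, and CTSA, CTSC and CTSD to decile 9. Relative to the median of their own decile, PLBD2 stood at -0.85, TPP1 at -0.84, CTSA at -0.48, PSAP at -0.29, CTSZ at -0.28, CTSD at -0.27, HEXA at -0.23 and CTSC at -0.02, while CTSB stood at 0.45. On that scale no member reached 2-fold. Within the heaviest decile of 1084 genes, 0.738% had a lower shift than TPP1 and 0.646% a lower one than PLBD2, against 19.0% for PSAP and 24.7% for HEXA. The medians of the coding length classes ran from -0.12 to -0.01.

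**Figure D3:**
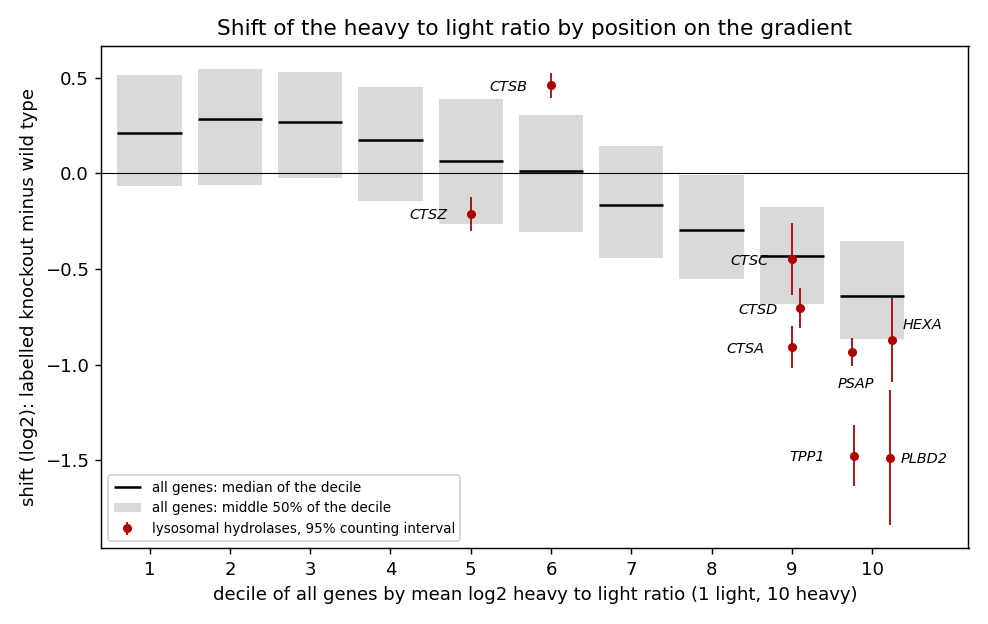
Shift of the log2 heavy to light ratio (labelled knockout minus wild type, y axis) by decile of all genes from light to heavy (x axis). Grey bars span the middle 50% of each decile, black lines are its median (0.21 in the lightest and -0.64 in the heaviest), and red points are the hydrolases with 95% counting intervals, TPP1 and PLBD2 lying lowest at -1.48 and -1.49.

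The shift can be taken apart by comparing the genotypes separately in heavy and in light polysomes. In light polysomes 6 of the 7 added members were above 0, as were 51.7% of the same 10834 genes, with a median log2 ratio of 0.86 against 0.02 over those genes. TPP1, picked on these libraries, was highest of the 9 at 1.96 (counting interval 1.82 to 2.10), from 23.8 CPM in the wild type to 93.0 CPM in the labelled knockout. CTSA had 1.67 (1.58 to 1.77), from 55.0 to 175 CPM, PLBD2 1.21 (0.90 to 1.52), from 5.63 to 13.2 CPM, and CTSD 1.11 (1.03 to 1.20), from 72.8 to 158 CPM. These 4 differed at least 2-fold, where 3.91% of 10992 genes (those reaching 100 counts in 1 of the 2 libraries) were at least 2-fold higher and 3.05% lower. TPP1 and PLBD2 were picked from the same libraries, so of the members that were not, CTSA and CTSD passed. A rise in light polysomes was not particular to hydrolases. The 5 epithelial markers, which are no lysosomal genes, had a median log2 ratio of 0.95 there, and 2 of the 5 were at least 2-fold higher. HEXA had 0.88 (0.69 to 1.07), PSAP 0.86 (0.79 to 0.92) and CTSZ 0.40 (0.34 to 0.46). CTSC, at 0.08 (-0.08 to 0.23), had an interval that includes 0, and CTSB lay at -0.07 (-0.12 to -0.03).

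In heavy polysomes the differences were smaller and no member reached 2-fold, where 3.26% of 10690 genes were at least 2-fold higher and 2.60% lower. Of the 7 added members 5 were above 0, as were 47.1% of the 10834 genes, with medians of 0.19 and -0.03. CTSA was highest at 0.76 (0.71 to 0.82), from 206 to 349 CPM, followed by TPP1 at 0.48 (0.41 to 0.56), CTSD at 0.41 (0.36 to 0.46), CTSB at 0.39 (0.34 to 0.43) and CTSZ at 0.19 (0.12 to 0.26). HEXA stood at 0.01 (-0.09 to 0.12), with 73.9 CPM in wild type cells and 74.6 in the labelled knockout. PSAP stood at -0.08 (-0.11 to -0.04), PLBD2 at -0.28 (-0.45 to -0.10) and CTSC at -0.37 (-0.48 to -0.26).

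The members thus differed in which libraries carried the shift. TPP1, CTSA, CTSD and CTSZ were above 0 in both fractions and more so in light polysomes, while HEXA was above 0 in light polysomes and near 0 in heavy ones. PLBD2, PSAP and CTSC were below 0 in heavy and above 0 in light polysomes, and CTSB was the reverse. The light value of CTSC was near 0, with an interval that includes 0, and was -0.008 with library totals. Of 10418 genes that reached 100 counts in both fractions, 30.8% were above 0 in both fractions and 21.3% below 0 in heavy and above 0 in light polysomes. The 2 comparisons come from the same pair of gradients and do not replicate each other.

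**Figure D4:**
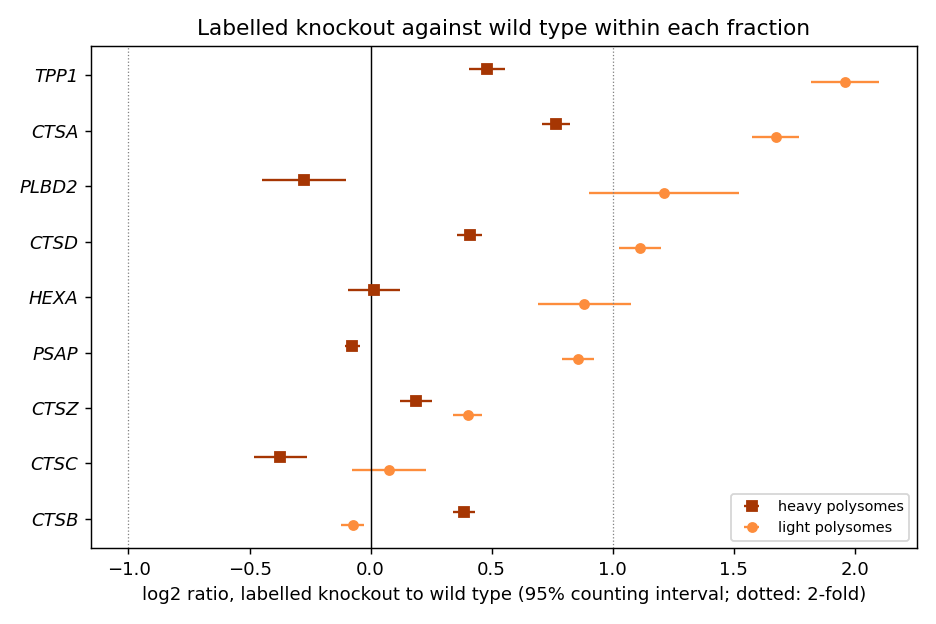
Labelled knockout to wild type ratio (log2, x axis, 95% counting intervals, dotted lines at 2-fold) for each hydrolase in heavy (squares) and light polysomes (circles). The light value exceeds the heavy one for every gene shown except CTSB, and TPP1, CTSA, PLBD2 and CTSD pass 2-fold in light polysomes only.

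The 4 members that were at least 2-fold higher in light polysomes of the labelled knockout are the same 4 whose promoter windows hold an E-box motif shown above, and CTSC and CTSZ, without one, did not reach 2-fold. This overlap was noticed after the values were seen. TPP1 and PLBD2 had been picked on their light polysome values and the motifs chosen with their sequences in view, so CTSA and CTSD alone lie outside that choice. Of the 29 other lysosomal hydrolases among the 10834 genes that have a promoter window, 0 of 7 with either motif and 6 of 22 with neither were at least 2-fold higher in light polysomes, with median log2 ratios of 0.38 and 0.57. The 7 were DPP7, SCPEP1, GAA, NEU1, HPSE, GALNS and PPT1. Over all of the 10834 genes with a window the medians were 0.07 for the 1041 with a motif and 0.02 for the 7343 without, and 52 and 253 of them (4.995% and 3.45%) were at least 2-fold higher. TFEB mRNA had 152, 102, 143 and 89 counts, and that of TFE3 417, 876, 357 and 495. The labelled knockout to wild type ratios (log2) were -0.02 in heavy and 0.06 in light polysomes for TFEB, and -0.16 and -0.56 for TFE3. These mRNA values do not measure the activity of the 2 proteins, and a link to the members was not tested.

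DICER1 makes microRNAs, so the 3′ UTRs of the members were searched for matches to the seeds (bases 2 to 8) of 16 microRNA families in GENCODE release 44 transcripts. A match is a string of 7 letters and was not tested as a site. TPP1, with a 3′ UTR of 1778 nucleotides, matched 1 family, let-7, which 11.1% of 12528 protein-coding genes tested also match. PLBD2, with 3003 nucleotides, had matches that included miR-16 at 2 places (24.9% of genes) and miR-24 (17.7%). The mature RNAs from RefSeq (GRCh38.p14) and these matching stretches of TPP1 and PLBD2 are printed because these 2 genes were picked for a like shift, with the seed or its match in capitals.
hsa-let-7a-5p: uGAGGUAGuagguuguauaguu
TPP1 at position 1603 of the 3′ UTR: tgcgccccctgtgcCTACCTC
hsa-miR-16-5p: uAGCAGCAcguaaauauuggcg
PLBD2 at position 17: ttctgtccctgctcTGCTGCT
PLBD2 at position 265: tgtctgtttcctacTGCTGCT
hsa-miR-24-3p: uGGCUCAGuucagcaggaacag
PLBD2 at position 2685: ctatggactcctctCTGAGCC
TPP1 and PLBD2 share no family among the 16. CTSZ matched none, CTSA 1, CTSC and HEXA 2 each, CTSD and PSAP 3 each and CTSB 4, and the median gene matched 2. Genes with a let-7 match had a median shift of 0.04 against -0.07 for those without, and those with a miR-16 match 0.06 against -0.09. All 16 families went the same way, from 0.01 against -0.07 for miR-26 to 0.11 against -0.08 for miR-19. The difference is thus not particular to let-7 or miR-16.

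The genes most like TPP1 and PLBD2 over the 4 libraries were found by the Euclidean distance between log2 CPM values after subtracting each gene's mean, among 9650 protein-coding genes whose lowest library held 100 counts or more. Among the 5 nearest to TPP1 were C1GALT1C1, a chaperone of a Golgi sugar transferase (distance 0.25), P3H1, a collagen prolyl hydroxylase (0.26), ATP6AP1, an accessory subunit of the V-ATPase (0.32), and NCSTN, a subunit of gamma-secretase (0.36). Nearest to PLBD2 were NOMO1, a protein of the endoplasmic reticulum membrane (0.08), UQCRC1, a subunit of respiratory complex III (0.11), PIAS1, a SUMO ligase (0.19), MICU2, a regulator of mitochondrial calcium uptake (0.20), and PSMC4, a proteasome subunit (0.21). TPP1 and PLBD2 lay 0.75 apart, farther than PLBD2 from HEXA (0.31) or TPP1 from CTSA (0.40), since TPP1 was higher in both fractions of the labelled knockout and PLBD2 in the light one alone.

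Among further lysosomal hydrolases more were called toward heavy than toward light polysomes. Of 51 further hydrolases in 4 lists, 45 were in the fit, and edgeR called 27 toward heavy and 4 toward light polysomes, with 14 not called. Over all 13574 genes of the fit 30.0% were called heavy and 29.3% light. These shares are also the background for the counts of the single lists below, and no list was matched for coding length. The median fitted ratio of the 45 hydrolases was 0.72. Of the 41 that are among the 10834 genes, 29 had a shift below 0 and the median was -0.31, against -0.05 over all genes. Their median heavy to light ratios (log2) were 0.86 (wild type) and 0.66 (labelled knockout). Both lie between the medians of decile 7 (0.64 and 0.49) and decile 8 (1.06 and 0.77). All genes of decile 7 had a median shift of -0.16, with 64.8% below 0, and those of decile 8 -0.29, with 75.7%. A shift below 0 at such ratios was thus not particular to hydrolases. The further hydrolases past 2-fold toward light included GLB1, the beta-galactosidase that CTSA protects (-1.17), and LIPA, the acid lipase (-1.01), and none of the 41 passed it toward heavy.

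Among other cathepsins and lysosomal peptidases, 6 of 10 in the fit were called toward heavy polysomes. CTSV, a relative of cathepsin L, stood at a fitted log2 ratio of 1.87 (SE 0.27) and CTSL, a cysteine endopeptidase, at 0.73. Over the 7 with 50 counts or more in each library the shifts ran from -0.97 for CTSH, an aminopeptidase with 1023, 474, 1047 and 830 counts, to 0.26 for CTSL. Glycosidases were called toward heavy polysomes in 15 of 17 and toward light in 1, HYAL2, a hyaluronidase held at the cell surface (-0.96). GAA, the acid alpha-glucosidase, had a shift of -0.75. Of 7 sulfatases 2 were called heavy, SGSH among them, and 2 light, IDS (-1.08) and ARSG (-0.97). The median shift of the sulfatases was 0.38, and ARSG had the highest, 0.84. The remaining lipid and other hydrolases in the fit numbered 11, of which 4 were called heavy and 1 light, RNASET2 (-0.65). Their shifts ran from -1.01 for LIPA to 0.20 for RNASET2. PPT1, which like TPP1 is lost in a neuronal ceroid lipofuscinosis, had a shift of -0.55.

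Among lipid carriers and activators, the cholesterol transporter NPC1 was called heavy (1.58) and GM2A, the activator used by HEXA, was not called (0.32). Their shifts were -0.83 for NPC1, -0.54 for NPC2 and -0.11 for GM2A. Lysosomal membrane proteins in the fit numbered 19, 5 called heavy and 2 light, and had a median shift of -0.03. LAMP2, a major glycoprotein of the lysosomal membrane, had a shift of -1.11 and LAMP1, its relative, -0.59. V-ATPase subunits in the fit numbered 18, 8 called heavy and 5 light. They had a median shift of -0.29, and 3 passed 2-fold toward light: ATP6V0D1 (-1.34), ATP6V1B2 (-1.08) and ATP6AP1 (-1.02).

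Genes that tag and sort the hydrolases had a median shift of -0.05 over 15. They were called heavy in 8 and light in 1, GNPTAB, the enzyme that starts the mannose 6-phosphate tag (-0.77). GNPTAB had a shift of 0.65 and M6PR, the smaller receptor, 0.42. IGF2R, the larger receptor, had 510, 158, 1811 and 379 counts, more than 2-fold higher in both fractions (log2 ratios 1.89 and 1.51). Regulators of lysosomal genes and of mTORC1 at the lysosome numbered 17 in the fit, 5 called heavy and 9 light, and had a median shift of 0.18. Among cystatins, inhibitors of the cysteine cathepsins, CST3 had a shift of -1.14 from 4832, 4244, 2657 and 4494 counts, and CSTB one of 0.06. The epithelial markers, which are no lysosomal genes, had shifts of -1.14 for KRT8, -1.02 for CDH1, -0.84 for KRT18, -0.71 for KRT19 and -0.38 for EPCAM. Their median was -0.84, and that of the 7 added hydrolases -0.70.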

How the data were processed

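The authors deposited 1 table of whole-number read counts per gene symbol, with 1 column per library and no normalisation that the values show. Per the submitters' processing notes, the tools were CASAVA, STAR and HTSeq and the genome was hg19. Tool versions, the gene annotation and whether counting used strand are not given in the sources used. Library totals ran from 17457116 to 20933675 counts. GENCODE release 44 (GRCh38) matched 23035 symbols directly and 1392 through older symbols, and served for lengths, positions and 3′ UTRs only. The fraction contrast was fitted over all 4 libraries with edgeR 4.0.16 under R 4.3.3 (TMM scaling, filterByExpr, quasi-likelihood test, gradient as a block), and a gene was called where its p, adjusted by Benjamini-Hochberg over all 13574 genes, was under 0.05.

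With 1 library per group no genotype test was possible. Log2 ratios of TMM-scaled CPM with a prior count of 2 carry 95% counting intervals, which hold counting error alone, since no molecular identifiers mark independent molecules. The gradients are the only replicates and differ in genotype, and no label names a repeat culture of either genotype. The p-values therefore measure the spread between these samples, including any genotype difference in the heavy to light ratio. Genotype ratios were counted at 2-fold among genes with 100 counts or more in the higher library, and shifts at 2-fold with an interval excluding 0 among genes with 50 or more in each library. Alternatives were library totals, DESeq2 1.42.0 size factors and Wald test, other filters and prior counts, no block, and single gradients. All members are named. For the other lists the genes with the highest and lowest shifts and up to 4 a list are named, and any further gene was chosen after its values were seen. Genes among the nearest 5 to TPP1 and PLBD2 are also named. Some items that these rules select are not reported here. The members, lists and motifs were chosen with earlier results of these data known. Tables were computed with Python 3.11.15, numpy 2.4.6 and pandas 2.3.3.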

Additional observations from a re-analysis of the deposited data

Results flagged for a closer look

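Some members went opposite ways in the 2 fractions or in the 2 gradients. None of these differences was tested, since each group had 1 library. The labelled knockout to wild type ratio (log2) was below 0 in heavy and above 0 in light polysomes for PLBD2 (-0.28 and 1.21, a difference of -1.49 when the light value is taken from the heavy one), for PSAP (-0.08 and 0.86, a difference of -0.93) and for CTSC (-0.37 and 0.08, a difference of -0.45). The light value of CTSC had a counting interval that includes 0, and with library totals it was -0.008. The heavy value of PSAP was -0.018 with library totals. CTSB went the other way, at 0.39 in heavy and -0.07 in light polysomes (a difference of 0.46). The heavy to light ratio of CTSB also changed sign between gradients, at -0.02 in the wild type, with a counting interval that includes 0, and 0.44 in the labelled knockout. PLBD2 was picked for this pattern.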

How the results depend on the processing

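The 5 added members called toward heavy polysomes (TPP1 and PLBD2 were picked on their ratios and get no test) were called with library totals, with DESeq2 size factors, without a filter on low counts and with the DESeq2 Wald test. With no replicate block (the gradient left out), 4 were called, CTSA (log2 ratio 1.27, adjusted p = 0.0701) being lost, and the calls over all genes fell from 8051 to 5040. The block is the only pairing that the design holds, since each genotype had 1 gradient with 1 library per fraction. Library totals moved the median log2 heavy to light ratio of all genes from -0.07 to -0.30 and the share of calls toward heavy polysomes from 50.6% to 38.9%. CTSB, which was not called, reversed to -0.028 with library totals, and with either gradient left out its ratio ranged from -0.025 (wild type alone) to 0.44 (labelled knockout alone). The numbers of genes at 2-fold between genotypes rose to 1013 in heavy and 1201 in light polysomes with a minimum of 20 counts, from 626 and 765, and the number of shifted genes to 572 with a minimum of 10 counts, from 355. Taken relative to the median of its decile of the mean ratio, 132 genes and 0 members had a 2-fold shift. With DESeq2 size factors 4 members had one. Counting error limits PLBD2 most, with 124 counts in wild type light polysomes.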
